A study of Mus musculus with 4 samples.

Results

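RNA of 8 macrophage polarization markers was measured in bone marrow derived macrophages (BMMs) that had been given RANKL with or without dimethyl itaconate (DI). The 8 genes, Arg1, Mrc1, Chil3, Retnla, Il10, Tgm2, Nos2 and Cd163, were taken by name from the 34745 genes of the count table, and each name matched 1 gene. BMMs are primary cells grown from marrow, here from wild-type male C57BL/6 mice that were 8 weeks old, and RANKL is the cytokine that turns them into osteoclasts. All cells were first held for 12 h in medium without FBS and were then cultured for 24 h in complete medium with RANKL at 100 ng/mL. The RANKL+DI group also received DI, a membrane permeable ester of itaconate, and the RANKL+Veh group received the vehicle, labelled DMSO. The sample labels give the dose of DI as 20 mM and the methods of the study give 20 μM. There were 2 libraries in each group, with 16085692 to 19403480 counts per library, and no library without RANKL or with LPS or IL-4 was part of the comparison. The labels do not say whether replicates came from separate mice or cultures, so p-values measure the spread between these libraries, which may be technical. Levels are given in CPM, a count scaled to the size of its library after TMM scaling. The summed level of 9 macrophage markers was 28770 and 29580 CPM with DI and 23470 and 22590 CPM with vehicle. Most of this sum was Lyz2 (22770 and 23790 CPM with DI, 18290 and 17630 CPM with vehicle). Adgre1, Csf1r and Cd68 were each at 1023 to 1436 CPM.

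Macrophages change their genes with the signals they receive. Bacterial products and interferon-γ drive classical activation, in which inducible nitric oxide synthase (Nos2) makes nitric oxide from arginine. IL-4 and IL-13 act through the receptor chain Il4ra and the transcription factor STAT6 to drive alternative activation, which is recognized by Arg1, Mrc1, Chil3, Retnla and Tgm2. IL-10 and glucocorticoids give a further state with high Cd163, and macrophages themselves make IL-10, which dampens inflammatory genes. Arginase 1, the product of Arg1, breaks down the same amino acid that Nos2 uses.

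The markers differ in the sequence in front of their start sites, and 4 of the 8 genes (Mrc1, Chil3, Cd163 and Retnla) were matched by symbol to a RefSeq promoter window on GRCm38.p6, which runs from 250 bases before to 50 bases after the RefSeq start site. Each window was searched on both strands for the letters TTNNGCAA (C/EBP), TGACNNNGC (antioxidant response element) and GAGGAAGT (PU.1), and for the STAT6 palindrome, TTC and GAA with any 4 bases between. The windows of Mrc1, Chil3 and Cd163 held none of the 4 motifs. That of Retnla held 1 STAT6 match starting at -145 from the RefSeq start site (chromosome 16, 48842609), 1 C/EBP match at -134 and 1 PU.1 match at -198, and these 3 do not overlap each other. Of 32851 promoter windows, 6.95% held the STAT6 letters, 10.8% the C/EBP letters, 12.4% those of the antioxidant response element and 3.20% the PU.1 letters. The sequences of the marker with no read and of the marker with the highest level are shown, with the motif matches in capitals. The deposited table starts Retnla 57 bases and Mrc1 22 bases before the RefSeq start, so each sequence is printed only up to the deposited start. The stretch of Retnla is chr16:48842359-48842551 and that of Mrc1 is chr2:14229164-14229391, both on the plus strand. A match is a string of letters and was not tested as a binding site.
Retnla: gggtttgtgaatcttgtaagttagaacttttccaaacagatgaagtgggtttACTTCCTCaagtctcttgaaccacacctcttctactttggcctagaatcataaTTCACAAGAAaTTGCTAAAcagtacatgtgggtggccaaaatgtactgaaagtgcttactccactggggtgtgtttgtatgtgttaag
Mrc1: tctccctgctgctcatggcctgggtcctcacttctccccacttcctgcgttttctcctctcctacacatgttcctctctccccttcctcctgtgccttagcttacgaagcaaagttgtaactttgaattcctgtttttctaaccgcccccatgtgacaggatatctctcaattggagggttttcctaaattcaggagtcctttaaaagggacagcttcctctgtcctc

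The markers covered a wide range of levels, and 2 of the 8 could not be tested. Ordered by FPKM, which divides by gene length and so allows genes to be compared, Mrc1 came highest at 30.3 to 30.7 FPKM over the 4 libraries, followed by Tgm2 at 14.8 to 17.3 FPKM. The mean FPKM of Mrc1 was higher than that of 89.2% of the 12590 tested genes, and that of Tgm2 higher than 79.3%. Chil3 (1.32 to 1.80 FPKM) and Il10 (0.759 to 1.41 FPKM) formed a lower level, and the order of these 2 genes cannot be told, since their ranges overlapped. Arg1 (0.113 to 0.228 FPKM), Nos2 (0.0535 to 0.279 FPKM) and Cd163 (0.0720 to 0.201 FPKM) lay lower still, with ranges that overlapped from each to the next. Retnla had no read. The range of Mrc1 lay above that of Tgm2, that of Tgm2 above that of Chil3, and that of Il10 above that of Arg1, without overlap.

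None of the 6 markers that passed the filter on low counts changed with DI at an adjusted p under 0.05 in edgeR's quasi-likelihood test, which compared RANKL+DI with RANKL+Veh. Over all 12590 tested genes, 14.8% passed (7.14% higher and 7.70% lower with DI). At an unadjusted p under 0.05 the count was 3 of 6 markers (Mrc1, Cd163 and Nos2), where 30.0% of all tested genes passed. Libraries of both groups did not overlap in CPM for 4 of the 6 (Mrc1, Tgm2, Cd163 and Nos2), where this held for 58.6% of all tested genes. Nos2 passed the filter through its vehicle libraries and Cd163 through its DI libraries, in each case the group where it was higher. Neither was tested when at least 10 counts were asked of every library, so the 3 of 6 and the 4 of 6 rest in part on the filter. Of the 6 markers, 3 had a fitted log2 fold change (log2FC, RANKL+DI minus RANKL+Veh) above 0 and 3 below. Their median was 0.01, beside 0.00 over the whole tested table. The count of called markers was also 0 by limma-voom and by the DESeq2 Wald test, which gave no adjusted p for Cd163 and Nos2, and it was 1 (Nos2) when libraries were scaled by their size only. In bulk RNA, fewer cells that express a gene and less RNA per cell cannot be told apart.

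**Figure D1:**
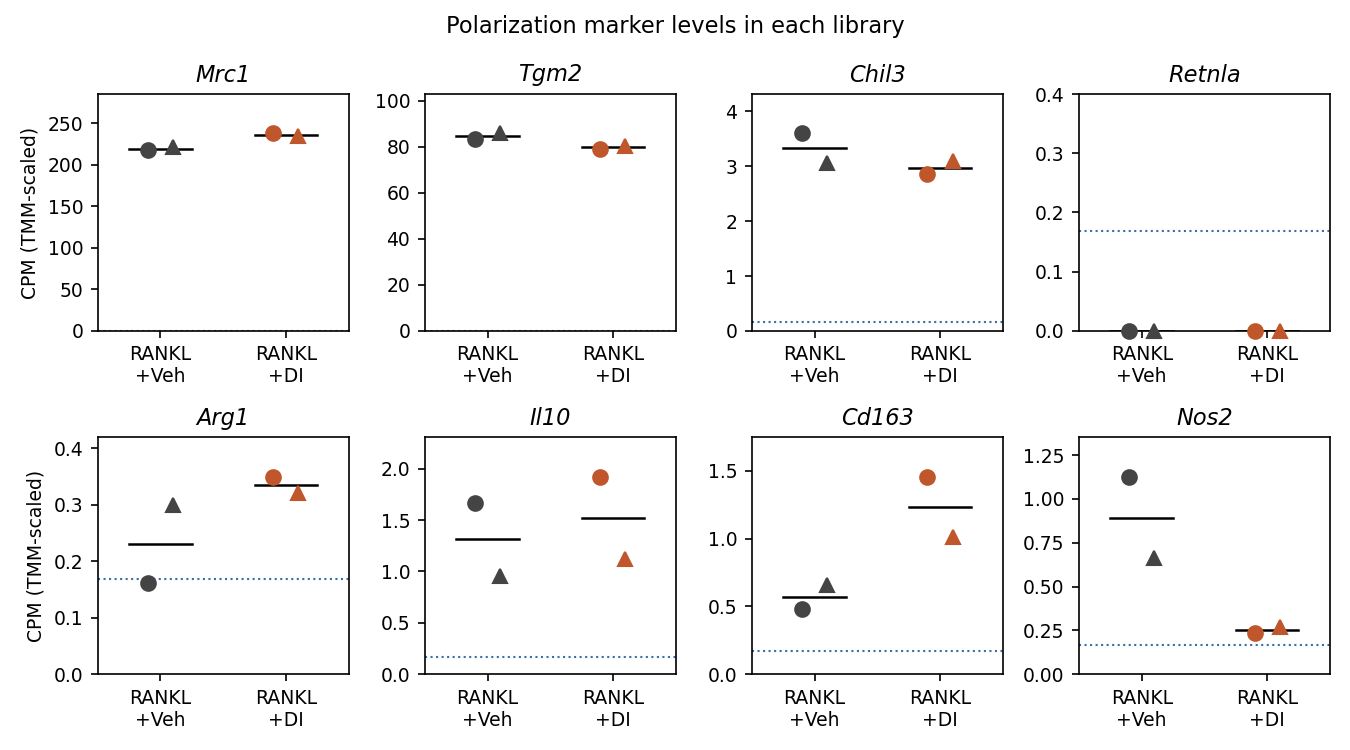
Level of each of the 8 markers in CPM on the TMM scale (linear axes that start at 0, a different range in each panel), with RANKL+Veh in grey and RANKL+DI in orange, replicate 1 as circles, replicate 2 as triangles and the group mean as a bar. The dotted line is the mean level of 3 counts over the 4 libraries, and Retnla has no count while Nos2 in the DI libraries (0.233 and 0.267 CPM) and Arg1 in all 4 libraries (0.161 to 0.350 CPM) lie close to that line.

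Mrc1 encodes the mannose receptor CD206, which takes up mannose-rich glycoproteins, and is on chromosome 2 from 14229392 to 14332057 (ENSMUSG00000026712, GRCm38). It was measured with 4079 and 4394 counts in the RANKL+DI libraries and 4056 and 3680 in the RANKL+Veh libraries. On the TMM scale these were 237.6 and 234.3 CPM with DI and 217.7 and 220.9 CPM with vehicle, and the groups did not overlap. Its log2FC was 0.11 (SE, the standard error of the fit, 0.038, unadjusted p = 0.0334, adjusted p = 0.129, edgeR), a fold of 1.08 with a 95% interval of 1.01 to 1.15. The size of the difference rests on the scaling. With library size only, the whole table shifted to a median of -0.10 and Mrc1 to 0.00, and in FPKM, which has no TMM factor, both groups overlapped (30.4 and 30.7 with DI, 30.3 and 30.7 with vehicle).

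Tgm2 encodes transglutaminase 2, an enzyme that cross-links proteins and is induced by IL-4 in macrophages, and is on chromosome 2 from 158116402 to 158146436 (ENSMUSG00000037820). Counts were 1358 and 1508 in the DI libraries, 1557 and 1430 in the vehicle libraries. This corresponds to 79.1 and 80.4 CPM with DI and 83.6 and 85.9 CPM with vehicle, so both DI libraries lay below both vehicle libraries by a few per cent. The log2FC was -0.09 (SE 0.052, adjusted p = 0.328, edgeR), a fold of 0.942 with a 95% interval of 0.862 to 1.03. Library size only put it at -0.19 (adjusted p = 0.0544, edgeR). Exons of Tgm2 overlap Rprd1b over 8.03% and Gm20412 over 13.7% of their length on the opposite strand, and no source says that reads were counted by strand. Rprd1b had 198 and 190 counts in the DI libraries and 299 and 241 in the vehicle libraries, and Gm20412 had 0 to 3 per library. Whether reads of Rprd1b have a part in the value of Tgm2 was not tested.

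Chil3 encodes the chitinase-like secreted protein Ym1 and lies on chromosome 3 from 106147554 to 106167564 (ENSMUSG00000040809). The DI libraries held 49 and 58 counts (2.85 and 3.09 CPM), the vehicle libraries 67 and 51 (3.597 and 3.062 CPM). The second DI library was level with the second vehicle library, and the groups overlapped. The log2FC was -0.16 (SE 0.20, adjusted p = 0.636, edgeR), and the 95% interval of the fold, 0.636 to 1.25, leaves room for a moderate change in either direction. Its longest transcript matches that of Chil4 at 94.3% identity over its whole length and that of the pseudogene Gm6522 at 94.96% over 76.1%. Both of these had 0 counts in all 4 libraries, so reads that fit several copies, if they were dropped or moved, cannot be told from the table.

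Arg1 (ENSMUSG00000019987), on chromosome 10 from 24915208 to 24927470, was too low to test. Both DI libraries held 6 counts, and the vehicle libraries held 3 and 5. Summed over libraries this was 12 against 8 counts, a ratio of 1.47 after scaling, with an exact (Clopper-Pearson) 95% interval of 0.554 to 4.16 that covers counting error only. These counts alone do not tell folds of Arg1 within that interval apart. When all genes with a count were fitted, its log2FC was 0.54 (95% interval -1.25 to 2.33, adjusted p = 0.745, edgeR). The libraries do show that Arg1 RNA was scarce in both groups, at 0.161 to 0.350 CPM.

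Retnla encodes the secreted protein RELMα (also called FIZZ1) and lies on chromosome 16 from 48842552 to 48844461 (ENSMUSG00000061100). It had 0 counts in each of the 4 libraries. A count of 0 allows up to 3 counts, which is 0.160 to 0.180 CPM in these libraries, and no fold can be given. Its family members Retn, Retnlb and Retnlg also had 0 counts in all 4 libraries.

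Il10 and Cd163 are the markers of the IL-10 linked state. Il10 (chromosome 1 from 131019845 to 131024974, ENSMUSG00000016529) was read 33 and 21 times in the DI libraries (1.92 and 1.12 CPM), against 31 and 16 in the vehicle libraries (1.66 and 0.961 CPM). Libraries of the same group differed more than the group means, which were 1.52 ± 0.568 CPM with DI and 1.31 ± 0.498 CPM with vehicle (± SD of 2 libraries). The log2FC was 0.19 (SE 0.42, adjusted p = 0.808, edgeR), with a 95% interval of the fold from 0.562 to 2.31. Its sign was not stable. The value was -0.24 without DI replicate 1 and -0.14 without vehicle replicate 2, and 0.54 and 0.65 without the other 2 libraries.

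Cd163 encodes a scavenger receptor that takes up haemoglobin bound to haptoglobin, and lies on chromosome 6 from 124304656 to 124330527 (ENSMUSG00000008845). The DI libraries held 25 and 19 counts, the vehicle libraries 9 and 11. In CPM these were 1.46 and 1.01 with DI and 0.483 and 0.660 with vehicle, so both DI libraries were above both vehicle libraries. The fitted value was 2.15-fold (95% interval 1.10 to 4.20), a log2FC of 1.10 (SE 0.39, unadjusted p = 0.0315), and the adjusted p of 0.124 missed the threshold (edgeR). Over the alternatives the adjusted p ranged from 0.110 to 0.456 (edgeR and limma), and the log2FC from 0.54, on the log2(FPKM + 0.1) scale that understates low genes, to 1.35. The difference rests on 44 against 20 counts in all, and 2.77% of the tested genes had a lower mean FPKM than Cd163. The gene passed the filter on low counts through its DI libraries, the group where it was higher.

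Nos2 had the largest fitted difference among the 6 tested markers, but it passed the filter on low counts only through its vehicle libraries. Its DI counts were as low as those of Arg1 (3 to 6 per library), which was not tested. It lies on chromosome 11 from 78920787 to 78960254 (ENSMUSG00000020826) and was read 4 and 5 times in the DI libraries, against 21 and 11 in the vehicle libraries. These were 0.233 and 0.267 CPM with DI and 1.13 and 0.660 CPM with vehicle, without overlap, although the vehicle libraries also differed from each other. The fold was 0.283 (95% interval 0.119 to 0.674), a log2FC of -1.82 (SE 0.51, unadjusted p = 0.0120), and the adjusted p was 0.0681 (edgeR). Scaling by library size only gave -1.92 and an adjusted p of 0.0484 (edgeR), and over the alternatives the adjusted p ranged from 0.0484 to 0.275 (edgeR and limma). Without vehicle replicate 1 the log2FC was -1.37, and without vehicle replicate 2 it was -2.14.

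**Figure D2:**
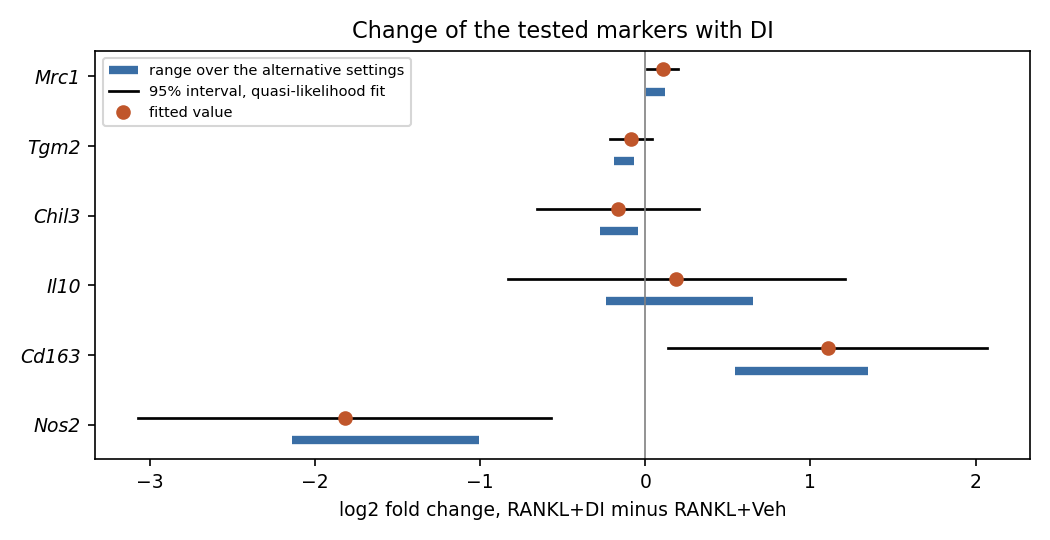
Log2 fold change of the 6 tested markers, RANKL+DI minus RANKL+Veh (points), with the 95% interval of the quasi-likelihood fit (black lines) and the range over the alternative settings (blue bars). Intervals are narrow for Mrc1 and Tgm2 and wide for Il10, Cd163 and Nos2, and the values run from -1.82 for Nos2 to 1.10 for Cd163.

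A list of 34 genes was drawn from the families of the markers, the 8 markers included. The list does not hold every member of these families, so its shares depend on which genes were listed. Of the 34 listed genes, 11 were tested and 15 had no count in any library. Among them only Cd5l, a scavenger receptor cysteine-rich protein like Cd163 that macrophages secrete, passed the test, which is 9.09% of the 11 beside 14.8% of all tested genes. Cd5l rose from 9.55 ± 0.0874 CPM to 26.8 ± 2.93 CPM (± SD of 2 libraries), a log2FC of 1.49 (SE 0.11, adjusted p = 0.00140, edgeR). Its counts were 424 and 541 in the DI libraries, 179 and 158 in the others, with no overlap. Of the other mannose receptor family members, Ly75 was at -0.49, Pla2r1 at -0.89 and Mrc2 at -0.36 on the log2 scale, and none of these passed (adjusted p = 0.126, 0.119 and 0.633, edgeR). Ly75 passed in limma on log2(FPKM + 0.1), at -0.49 with an adjusted p of 0.0422. F13a1, a transglutaminase, was at 0.26 (adjusted p = 0.822, edgeR) on 5 to 16 counts. Arg2, the mitochondrial arginase, did not pass the filter and is named here after its values were seen. The DI libraries held 11 and 10 counts, the vehicle libraries 1 and 6, and when all genes with a count were fitted its log2FC was 1.52 (95% interval -0.22 to 3.26, adjusted p = 0.304, edgeR).

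Some of the listed genes that carry or accompany the IL-4 signal differed between the groups. Of 24 alternative activation genes, 17 were tested, 5 were higher and 2 lower with DI, with a median log2FC of 0.05. This is 41.2% of the tested genes of the list, where 14.8% of all tested genes passed (7.14% higher and 7.70% lower). The list was chosen with earlier results of these data known, so the share is no test of it. Cebpb, a transcription factor of myeloid cells, rose from 86.8 ± 0.847 to 151.3 ± 3.39 CPM (± SD of 2 libraries), a log2FC of 0.80 (SE 0.045, adjusted p = 5.80e-04, edgeR). Il4ra, the receptor chain for IL-4 and IL-13, rose from 103 ± 1.90 to 152 ± 1.99 CPM (± SD of 2 libraries), a log2FC of 0.56 (SE 0.044, adjusted p = 0.00148, edgeR). Clec7a, the β-glucan receptor dectin-1, was at 0.63 and Cd200r1, an inhibitory receptor, at 0.55 (adjusted p = 0.00104 and 0.00298, edgeR). Il1rn, the IL-1 receptor antagonist, fell by 1.02 on the log2 scale (adjusted p = 0.00248, edgeR). Klf4, a transcription factor that acts with STAT6, was at -0.30 (adjusted p = 0.0361, edgeR), and this call was lost without any single library, with adjusted p-values of 0.1003 to 0.1432 (edgeR). Stat6 itself was at 0.06 (adjusted p = 0.348, edgeR) with a 95% interval of -0.03 to 0.16, and at -0.04 with library size only. Pparg, a nuclear receptor of alternatively activated macrophages, was at -0.06 (adjusted p = 0.686, edgeR). Irf4 had 4 to 8 counts per library and was not tested, and Ccl17 and Ccl24, chemokines of this state, had 0 counts in all 4 libraries.

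Genes linked to IL-10 and to resident macrophages had 14 of 16 members tested, of which 6 were higher and 1 was lower with DI, with a median log2FC of 0.22. Beside Cd5l, the higher genes included Hmox1, the heme oxygenase that NRF2 also controls, at 0.81, Mertk, a receptor for dying cells, at 0.43, and the scavenger receptor gene Stab1, at 0.39 (adjusted p = 0.00135, 0.0118 and 0.00251, edgeR). Socs3, a feedback inhibitor of cytokine signaling, was lower, at -0.99 (SE 0.16, adjusted p = 0.0119, edgeR). Without vehicle replicate 1 Socs3 was at -0.95 with an adjusted p of 0.0551 (edgeR).

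Of 28 classical activation genes, 16 were tested, 2 were higher and 3 lower with DI, with a median log2FC of 0.02. In this list, also chosen with earlier results known, 31.25% of the tested genes passed. The shares over all tested genes were 7.14% higher and 7.70% lower. The lower genes included Cxcl10, an interferon-induced chemokine, at -2.08, and Socs3, which both lists hold. Cxcl10 was at 20.9 ± 2.34 CPM with vehicle and 4.94 ± 0.479 CPM with DI (adjusted p = 9.20e-04, edgeR). The higher genes were Marco, a scavenger receptor for bacteria, at 0.68, and Cybb, the catalytic subunit of the phagocyte NADPH oxidase, at 0.18 (adjusted p = 0.00536 and 0.0192, edgeR). Cybb lost its call in 3 of the 4 fits without a library (adjusted p 0.0598 to 0.0684, edgeR), the exception being the fit without vehicle replicate 2, and with library size only. Irf5, a transcription factor of classical activation, was at 0.67 (adjusted p = 0.0596, edgeR), on 2307 counts in DI replicate 1 and 3766 in DI replicate 2. It was at 0.93 without DI replicate 1 and at 0.35 without DI replicate 2, fits that hold a single DI library and so none of the spread between the DI libraries. Without vehicle replicate 1 it was at 0.73 and without vehicle replicate 2 at 0.61. When all genes with a count were fitted, Irf5 was at 0.67 with an adjusted p of 0.00617 (edgeR), so its call depends on the filter. The genes without a test included Il6, Il12a, Il12b and Il1b, cytokines of classical activation that had at most 5 counts in any library.

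Most genes around arginine could be tested, although Arg1 could not. Of 19 genes of arginine and polyamine metabolism, Arg1 and Nos2 included, 16 were tested, 2 were higher and 5 lower with DI, with a median log2FC of -0.21. Slc7a1, which imports arginine, fell from 91.2 ± 1.60 to 60.3 ± 2.45 CPM (± SD of 2 libraries), a log2FC of -0.60 (SE 0.059, adjusted p = 0.00294, edgeR). Srm and Sms, the synthases of spermidine and spermine, and Odc1, the first enzyme of polyamine synthesis, were at -0.48, -0.34 and -0.35 (adjusted p = 0.00638, 0.0192 and 0.00776, edgeR). Ass1, an enzyme of 1 step in the remaking of arginine from citrulline, rose by 0.62 (SE 0.063, adjusted p = 0.00312, edgeR). Azin1, which protects ornithine decarboxylase, was at 0.44 (adjusted p = 0.0313, edgeR). Azin1 lost its call without either vehicle library (adjusted p = 0.112 and 0.0821, edgeR), and its log2FC was 0.29 without DI replicate 2. Sms lost its call without DI replicate 2 and without either vehicle library (adjusted p 0.0637 to 0.0880, edgeR). In each of these 4 lists at least 31.2% of the tested genes passed, beside 14.8% of all tested genes. The lists share genes and were chosen with earlier results of these data known, so these shares are no test of the lists.

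**Figure D3:**
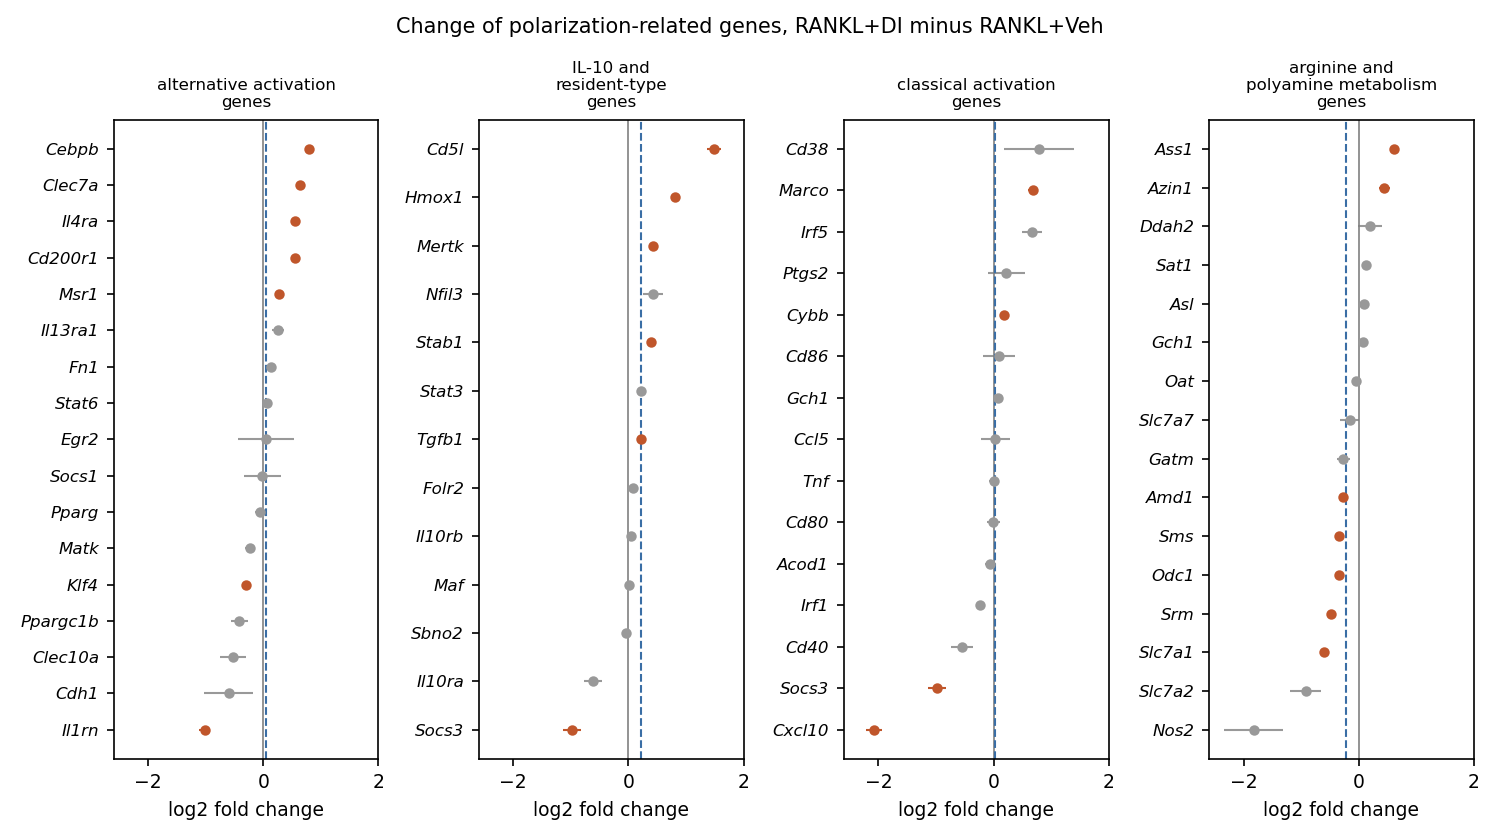
Log2 fold change with SE of tested genes in the 4 lists, RANKL+DI minus RANKL+Veh (2 tested genes are not drawn), with genes at an adjusted p under 0.05 (edgeR) in orange, others in grey, and the median of all tested genes of the list as a dashed line. Medians are 0.05, 0.22, 0.02 and -0.21 from left to right, and genes lie on both sides of 0 in each list.

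Arg1, Chil3, Retnla and Il10 are also made by other blood cells, so markers of these were read in the same libraries. T and NK cell markers summed to at most 0.117 CPM, with 5 of 6 at 0 counts in every library. B cell markers summed to 0.117 to 0.600 CPM, mast cell and basophil markers to 0.373 to 1.28 CPM and dendritic cell markers to 0.300 to 0.816 CPM. Neutrophil markers summed to 10.7 and 11.2 CPM with DI and 9.39 and 11.0 CPM with vehicle, with Ly6g at 0, and eosinophil markers to 8.56 to 9.82 CPM, with Epx at 0. Stromal markers, mainly collagen genes, summed to 41.4 and 43.2 CPM with DI and 44.4 and 51.4 CPM with vehicle. The test was open to 4 neutrophil, 2 eosinophil, 5 stromal and 1 mast cell marker, and edgeR called 0 of them in each list, where 14.8% of all tested genes were called. The cells also differed in osteoclast genes, where 5 of 8 tested markers were lower and 2 higher with DI, with a median log2FC of -0.51, and in macrophage markers, where 5 of 9 were higher and 2 lower, with a median of 0.18. Over all tested genes 7.14% were higher and 7.70% lower. Whether these differences have a part in the values of the 8 markers was not tested.

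By distance between log2 CPM profiles centred on each gene, over the 4 libraries, the genes nearest to Mrc1 were Aplp2, Dnajc4 and Gusb, those nearest to Tgm2 were Nap1l1, Adam17 and Atxn1l, and those nearest to Chil3 were Fbl, Abcg2 and Bcl7b. The distances were 0.00349 to 0.0354 log2 units. Such likeness is common among genes that differ little between libraries, since 4367 genes lay within 0.2 log2 units of Mrc1, 4450 of Tgm2 and 1592 of Chil3.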

How the data were processed

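Messenger RNA libraries were prepared with the VAHTS mRNA-seq v2 kit and sequenced from both ends. The authors deposited raw read counts per gene and library, and FPKM values made from these counts, on GRCm38 per the labels. The aligner, the counting program, the annotation release and the use of strand are not given in the sources used here. A copy of the table with added GO and KEGG terms was not used. The test was edgeR 4.0.16 (R 4.3.3): quasi-likelihood, treatment as sole term, TMM scaling, genes kept by filterByExpr at its defaults, and Benjamini-Hochberg adjustment over 12590 genes. CPM refer to TMM-scaled library sizes. Standard errors and 95% intervals came from the log2 fold change, the F statistic and the moderated degrees of freedom. The floor was 3 counts. Intervals and floors cover counting error only where they come from counts alone. Replicates differed by more than sampling noise (chi-square per degree of freedom 7.57 for RANKL+DI and 7.74 for RANKL+Veh). The main fit was tested on simulated data in which randomly drawn genes had an absolute log2 fold change of 1 or 2. Of these, 86.8% and 97.9% were recovered. The simulated spread followed the trend over genes, without a spread of each gene's own. These shares pool genes of all levels, so they do not speak for the markers with low counts.

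The members and the gene lists were chosen with earlier results of these data known. Named genes are the 8 markers, tested members of their families, up to 6 called genes of each list with the largest change, regulators (Stat6, Il4ra, Irf4, Klf4, Pparg, Cebpb and Irf5 among them), the 3 most alike genes of markers with an average log2 CPM over 1, and defining markers of other cells. Some genes that the rule names are not reported here. Acod1 is listed under an older symbol and was matched by its identifier. Transcripts were compared with GENCODE M21 by BLAST+ 2.17.0 (at least 85% identity over 20%). The alternatives were DESeq2 size factors, library size only, no filter, a minimum of 10 counts in each of the libraries, DESeq2 1.42.0 (Wald), limma-voom (limma 3.58.1), limma on log2(FPKM + 0.1), a replicate block, and each library left out. For Arg1 the last was also run without the filter, which was added after seeing the data.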

Additional observations from a re-analysis of the deposited data

How the results depend on the processing

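Among the 6 tested markers, Chil3, Tgm2 and Cd163 kept their direction and stayed above the threshold under every alternative that gave an adjusted p. Mrc1 missed the threshold under all of its alternatives too, but its difference was gone with library size only and in FPKM (0.002063 and 0.002171, adjusted p = 0.9749 in edgeR and 0.9828 in limma). Nos2 kept its direction, with a log2 fold change of -2.14 to -1.37 with each library left out, and passed only with library size only (-1.92, adjusted p = 0.0484, edgeR), which made the called markers 1 instead of 0. Il10 ranged from -0.24 to 0.65 with each library left out. Markers without a test were 2, but 1 without the filter and 4 with at least 10 counts in every library, which follows from the filters. DESeq2 gave no adjusted p for Cd163 and Nos2. Over all genes, 1868 were called, 1087 to 1394 with each library left out (558 to 682 higher and 529 to 712 lower), 1038 with limma on log2(FPKM + 0.1) (269 higher), and 548 higher and 1932 lower with library size only. In the lists, limma on log2(FPKM + 0.1) called 3 alternative activation genes higher instead of 5, 2 IL-10 and resident-type genes higher instead of 6, 0 classical genes higher instead of 2 and 1 arginine gene higher instead of 2. Library size only gave 1 classical and 1 arginine gene higher and 2 IL-10 and resident-type genes lower. The lower IL-10 and resident-type genes were also 2 without the filter, with the replicate block and by DESeq2. Alternative activation genes lower were 1 instead of 2 with the replicate block and by DESeq2. With each library left out, these lists gave 1 to 2 alternative and 0 to 2 IL-10 and resident-type genes lower, 1 to 2 classical and 1 to 2 arginine genes higher, and 3 to 4 arginine genes lower. Library size only and limma on log2(FPKM + 0.1) leave out the TMM factors, and the median log2FC of all tested genes was -0.10 with each, beside 0.00 in the main fit. The causes of the shifts in these counts were not tested. Of the other named genes, F13a1 ranged from -0.71 to 0.81 with each library left out, below 0 without DI replicate 2 and without vehicle replicate 1, and Stat6 turned to -0.0409 with library size only and -0.04085 in FPKM.

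Replicates with the same number did not deviate together (correlation -0.0734 over 11008 genes). With 2 libraries in each group this cannot tell whether libraries of the same number share a mouse, culture or preparation. The replicate block called 1389 genes (685 higher and 704 lower), and Nos2 was at -1.79 with an adjusted p of 0.105 (edgeR). Depth limits Arg1, Retnla, Nos2, Cd163, Il10 and Chil3, for which modest changes were not detectable.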
